A study of Homo sapiens with 17 samples.

Results

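The 40 genes described here act in G2 and mitosis, the end of the cell cycle, in which a cell with copied DNA builds a spindle, separates its chromosomes and divides. They were chosen by name for that function, with earlier results of these data known. Where a gene has several probe sets, the brightest by mean log2(signal + 16) stands for it. All 40 were on the array, and all 40 passed the filter on dim genes, which kept 13675 of 19775 genes.

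The arrays come from IMR32, an established human line of MYCN-amplified neuroblastoma, with a construct from which doxycycline induces NOTCH3IC, the intracellular and active part of the receptor NOTCH3. Doxycycline was given to 2 independent clones, and 1 array was made per clone and time. The 9 arrays of clone c6 cover times 0, 4, 8, 12, 24, 48, 72, 96 and 120. The 8 arrays of clone c8 end at time 96 and cover the same times up to there. The labels give no unit of time. The time 0 array of each clone is its only array before induction, and no culture without doxycycline was followed over time. NOTCH3IC, doxycycline and time in culture therefore cannot be told apart, and each clone's changes are read from a single time 0 array. The series title sets NOTCH3 in the context of motility and survival, and the question taken up here is what the division genes did over the same times. Separate cultures per time are not stated in the labels, and the p-values hold only the spread between these arrays.

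Transcription of these genes rises through G2 and peaks around mitosis. Cyclin B with CDK1 drives entry into mitosis, the polo-like and Aurora kinases build the spindle, the spindle checkpoint holds the cell until every kinetochore is attached, and the anaphase-promoting complex (APC/C) then marks cyclin B and securin for destruction. In resting and G1 cells the promoters are held off by the DREAM complex, which binds a cell cycle genes homology region (CHR), and in G2 they are driven by the MYBL2-containing MuvB complex and FOXM1, often together with NF-Y, which binds CCAAT. Their mRNA in a cell population is widely used as a readout of the share of dividing cells. In bulk RNA, fewer cells in G2 and mitosis and less of these RNAs per cell cannot be told apart.

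Promoter windows for 33 of the 40 genes were found in a RefSeq table (build GRCh38.p14), running from 250 bases before to 50 bases after the transcription start; BUB3, UBE2C, TPX2, TTK, FOXM1, AURKA and BIRC5 were not matched. Where a gene had several windows (6 of the 33), the window listed first was used. The printed examples are the 130 bases before the start of 5 genes that mark the extremes of the time course. PLK1 and CDC20 stood highest above time 0 at time 8 of clone c6, MKI67 and KIF11 were among the lowest at time 24 of clone c6, and CCNB2 stayed closest to time 0 among the cyclins on the low arrays. Capitals mark TTTGAA, a CHR core, and CCAAT, on either strand (TTCAAA and ATTGG on the other).
PLK1 (chr16:23678759-23678888, plus strand): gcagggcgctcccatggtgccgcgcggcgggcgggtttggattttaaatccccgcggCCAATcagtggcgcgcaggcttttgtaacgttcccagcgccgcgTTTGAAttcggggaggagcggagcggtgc
CDC20 (chr1:43358851-43358980, plus strand): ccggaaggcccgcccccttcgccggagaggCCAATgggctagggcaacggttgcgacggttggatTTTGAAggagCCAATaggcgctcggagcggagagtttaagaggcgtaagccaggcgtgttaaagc
MKI67 (chr10:128126424-128126553, minus strand): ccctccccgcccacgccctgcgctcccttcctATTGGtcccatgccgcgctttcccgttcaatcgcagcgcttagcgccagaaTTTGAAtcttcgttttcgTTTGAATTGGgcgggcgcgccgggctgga
KIF11 (chr10:92593000-92593129, plus strand): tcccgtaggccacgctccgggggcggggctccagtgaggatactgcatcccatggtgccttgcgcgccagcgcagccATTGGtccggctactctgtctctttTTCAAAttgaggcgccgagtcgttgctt
CCNB2 (chr15:59105016-59105145, plus strand): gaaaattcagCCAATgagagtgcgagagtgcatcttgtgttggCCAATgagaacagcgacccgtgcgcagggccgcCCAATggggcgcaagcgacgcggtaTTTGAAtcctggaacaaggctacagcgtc

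In PLK1 and CCNB2 the TTTGAA core began 29 bases before the start, with CCAAT upstream of it. MKI67 held TTTGAA at 47 and 29 bases before the start, and the second copy shares a base with an ATTGG. Over all 33 windows, 23 (69.7%) held TTTGAA and 2 (BUB1 and NDC80) held TTCGAA, so that 24 (72.7%) held either CHR core. Of the 27305 genes in the table, 16.6% held either core, and of the 11053 whose RNA was kept in these data, 11.5% did. The core lay within the last 60 bases before the start in 13 of the 33 genes (39.4%) against 3.16% of all genes. CCAAT stood in 25 of 33 windows (75.8%, all genes 35.7%), and a CHR core together with CCAAT in 20 (60.6%, all genes 6.58%). GGCGGGAA, an E2F site, was found in 2 of 33 (CDC25B and CENPA; all genes 3.18%), and TGGGAA, the core read by RBPJ, the DNA-binding partner of NOTCH, in 12 of 33 (36.4%, all genes 24.3%). All motifs were searched on both strands. These are letter matches in a fixed window, not bound sites. The 24 genes with a CHR core had a median log2 change of −1.02 at time 24 of clone c6 and −0.71 at time 12 of clone c8, and the 9 without it −0.99 and −0.64.

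Most of the 40 genes shared a course over time. Their signals stood slightly above time 0 at time 8, were well below it on a single low array in each clone, and lay near time 0 again afterwards. Clone c6 had its low array at time 24, clone c8 at time 12. In clone c6 the median log2 change from the clone's own time 0 was 0.10, 0.39, 0.25, −1.0, −0.30, −0.05, −0.22 and −0.11 at times 4, 8, 12, 24, 48, 72, 96 and 120. In clone c8 it was 0.27, 0.27, −0.66, −0.28, 0.11, 0.07 and −0.08 at times 4 to 96. The median over all 13675 genes kept stayed between −0.00 and 0.08 on every array. Each array is single, so the value at a given clone and time has no replicate check.

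**Figure D1:**
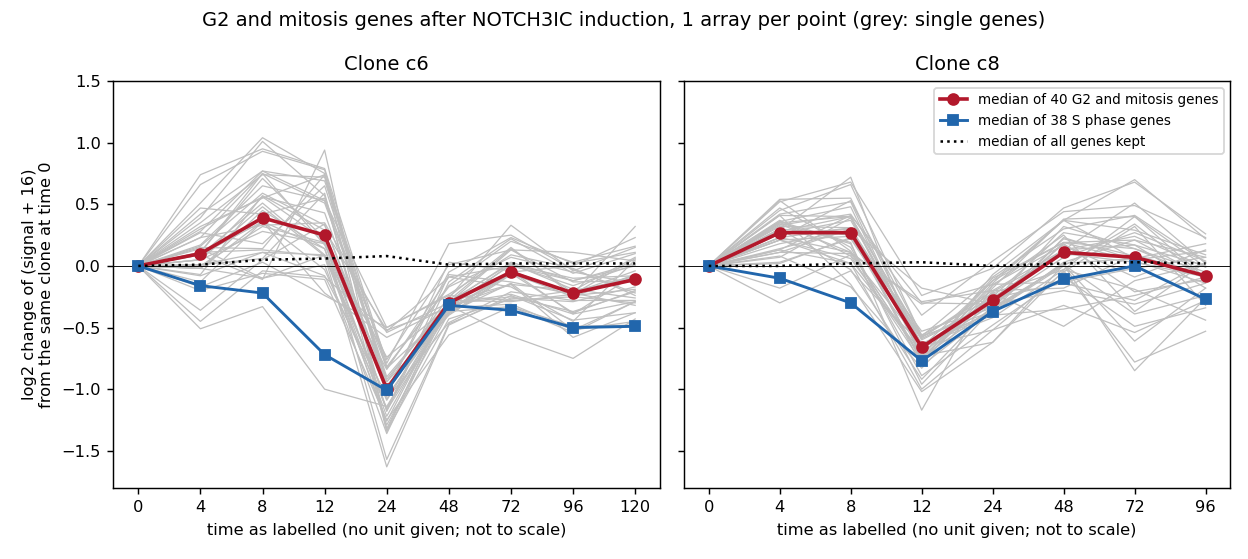
Log2 change of (signal + 16) from the same clone at time 0, for each of the 40 G2 and mitosis genes (grey lines), their median (red circles), the median of 38 S phase genes (blue squares) and the median of all genes kept (dotted line), against time as labelled, with 1 array per point. The red line reaches −1.0 at time 24 in clone c6 and −0.66 at time 12 in clone c8, while the blue line is at or below 0 from time 4.

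At time 8, 34 genes were above time 0 in clone c6 (56.2% of all genes) and 36 in clone c8 (52.3%), of which 12 (6.37%) and 3 (4.39%) were 1.5-fold or more above it. The 33 genes above time 0 in both clones compare with 36.8% of all genes. At time 24 of clone c6, 40 of 40 genes were below time 0, and 34 were 1.5-fold or more below it, against 7.23% of all genes. At time 12 of clone c8, 40 of 40 were below time 0 and 28 were 1.5-fold or more below it, against 5.92% of all genes. The 26 genes 1.5-fold or more below on both of these arrays compare with 3.12% of all genes. For 40 of 40 genes time 24 was the lowest of the 9 arrays of clone c6 (12.9% of all genes), and for 37 of 40 time 12 was the lowest of the 8 arrays of clone c8 (14.9% of all genes). Both held for 37 of 40 (5.40% of all genes). In clone c8 CCNB2 and PTTG1 were lowest at time 24 and CENPF at time 72. The 2 low arrays were picked out after the values were seen, so these counts are descriptions with no test.

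The low arrays do not rest on time 0 as the reference. Against the mean of the clone's other arrays, the genes lay at a median of −1.02 (range −1.55 to −0.32) at time 24 of clone c6 and −0.70 (−1.26 to −0.25) at time 12 of clone c8. The next lowest array of the same gene was a median of 0.67 away in clone c6. In clone c8 it was 0.37 away, and there time 24 was also low (39 of 40 genes below time 0, 2 of them 1.5-fold or more, against 3.46% of all genes). Outside these arrays few of the 40 were 1.5-fold or more below time 0, namely 1 at time 12 of clone c6 (6.02% of all genes), 0 at time 72 of clone c6 (3.29%), 1 at time 96 of clone c6 (MAD2L1; 4.97%) and 3 at time 72 of clone c8 (6.57%).

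**Figure D2:**
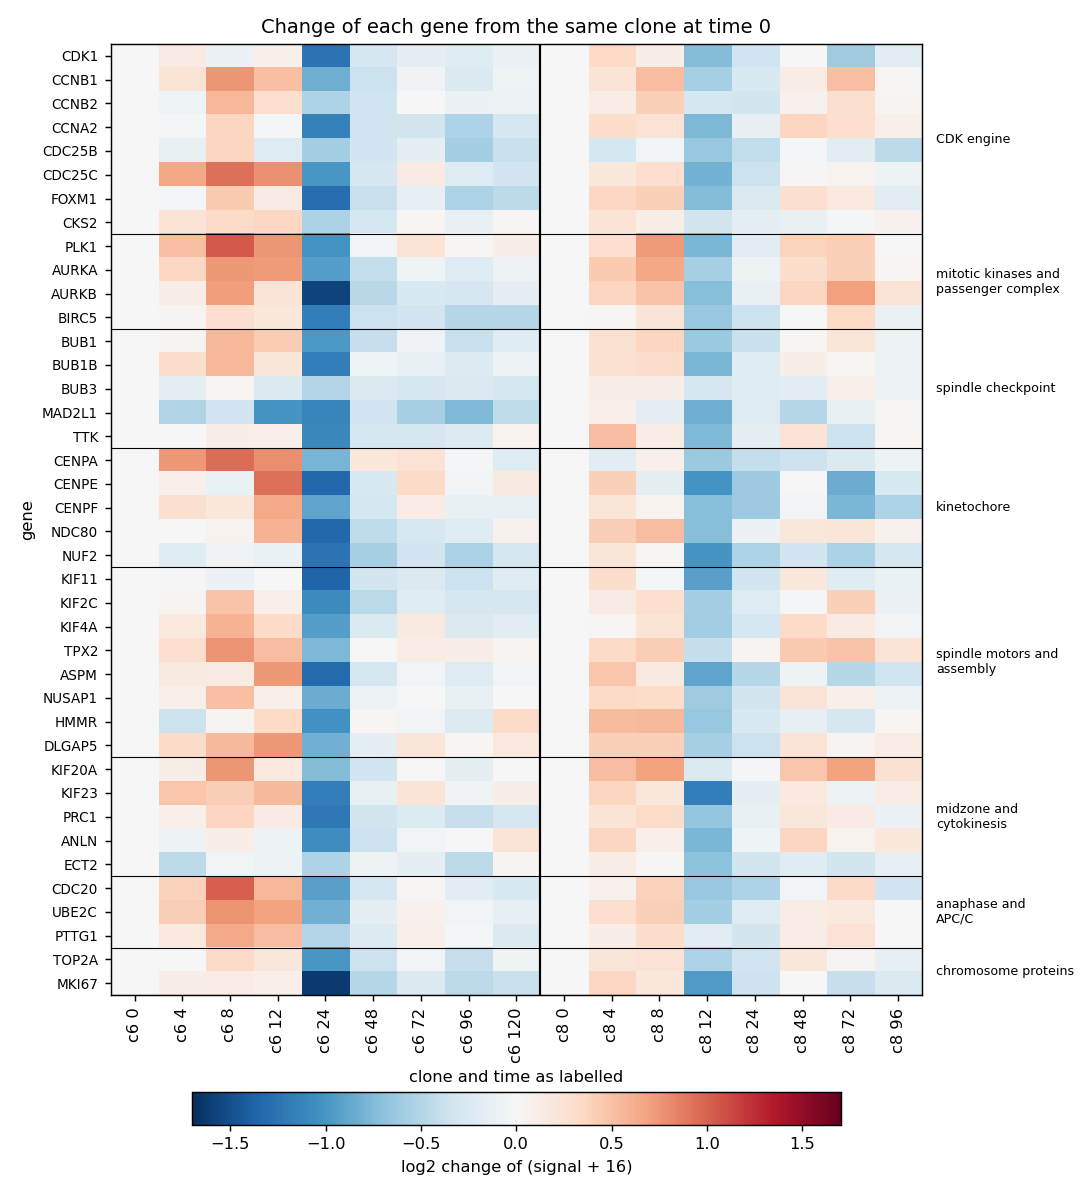
Log2 change of (signal + 16) from the same clone at time 0 for the 40 genes (rows, grouped by role) on the 17 arrays (columns, clone and time as labelled); blue is lower and red higher than time 0. The blue columns at c6 time 24 and c8 time 12 run through every role, and the darkest cells are MKI67 (−1.63) and AURKB (−1.57) at c6 time 24.

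Genes of the CDK engine switch mitosis on. CDK1, the kinase itself, had signals of 2891, 3193, 2692, 3081, 1202, 2360, 2603, 2516 and 2704 over the 9 times of clone c6, and 2409, 3064, 2609, 1431, 1905, 2423, 1573 and 2122 over the 8 of clone c8. Its level at time 24 of clone c6 was thus less than any other array of that clone, 2.39-fold below time 0, and at time 12 of clone c8 1.68-fold below. CCNB1, the cyclin that activates CDK1 at mitotic entry, read 1491, 1757, 2511, 2135, 830, 1156, 1432, 1254 and 1420 in clone c6. In clone c8 CCNB1 read 1506, 1770, 2183, 1017, 1255, 1649, 2159 and 1522, so that it was highest at time 8 and lowest on the low array in both clones. CCNA2, the cyclin of S phase and G2, was 732 at time 0 and 322 at time 24 in clone c6, and 665 at time 0 and 386 at time 12 in clone c8.

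FOXM1, the forkhead factor that drives many mitotic genes, went from 529 at time 0 to 727 at time 8 and 207 at time 24 in clone c6, and from 325 to 432 at time 8 and 189 at time 12 in clone c8. CDC25B and CDC25C, phosphatases that remove the inhibitory phosphate from CDK1, were both lowest on the low arrays. CDC25C was 0.93 and 0.29 above time 0 on the log2 scale at time 8 of clones c6 and c8. CDC25B was 439 and 288 at times 0 and 24 of clone c6, and 420 and 264 at times 0 and 12 of clone c8. CKS2, a small CDK-binding protein, and CCNB2, another B cyclin, were at only −0.54 and −0.52 at time 24 of clone c6. The median over the 8 genes of this role was 0.41 at time 8 and −0.91 at time 24 in clone c6, and 0.27 at time 8 and −0.69 at time 12 in clone c8.

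The mitotic kinases and the passenger complex had a median of 0.72 at time 8 and −1.09 at time 24 in clone c6, and of 0.57 at time 8, the highest of any role, and −0.68 at time 12 in clone c8. PLK1, the polo-like kinase that promotes entry into mitosis and spindle assembly, read 135, 198, 294, 237, 58.9, 130, 161, 137 and 146 in clone c6. In clone c8 PLK1 read 337, 416, 567, 190, 296, 442, 451 and 334. The time 8 value was the highest in each clone, 1.04 and 0.72 above time 0 on the log2 scale, and every array of clone c8 was above the clone c6 array of the same time except time 12. AURKB, the kinase of the chromosomal passenger complex, read 598, 649, 985, 698, 190, 426, 495, 487 and 529 in clone c6, against 489, 632, 686, 289, 448, 634, 805 and 570 for clone c8. Its time 24 level in clone c6 was 2.97-fold below time 0, and in clone c8 its highest array was time 72. AURKA, the centrosomal Aurora kinase, stood at 733 at time 0, 1232 at time 8 and 373 at time 24 in clone c6. BIRC5 (survivin), the passenger subunit that also opposes apoptosis, stood at 1919, 2339 and 846 on the same arrays.

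**Figure D3:**
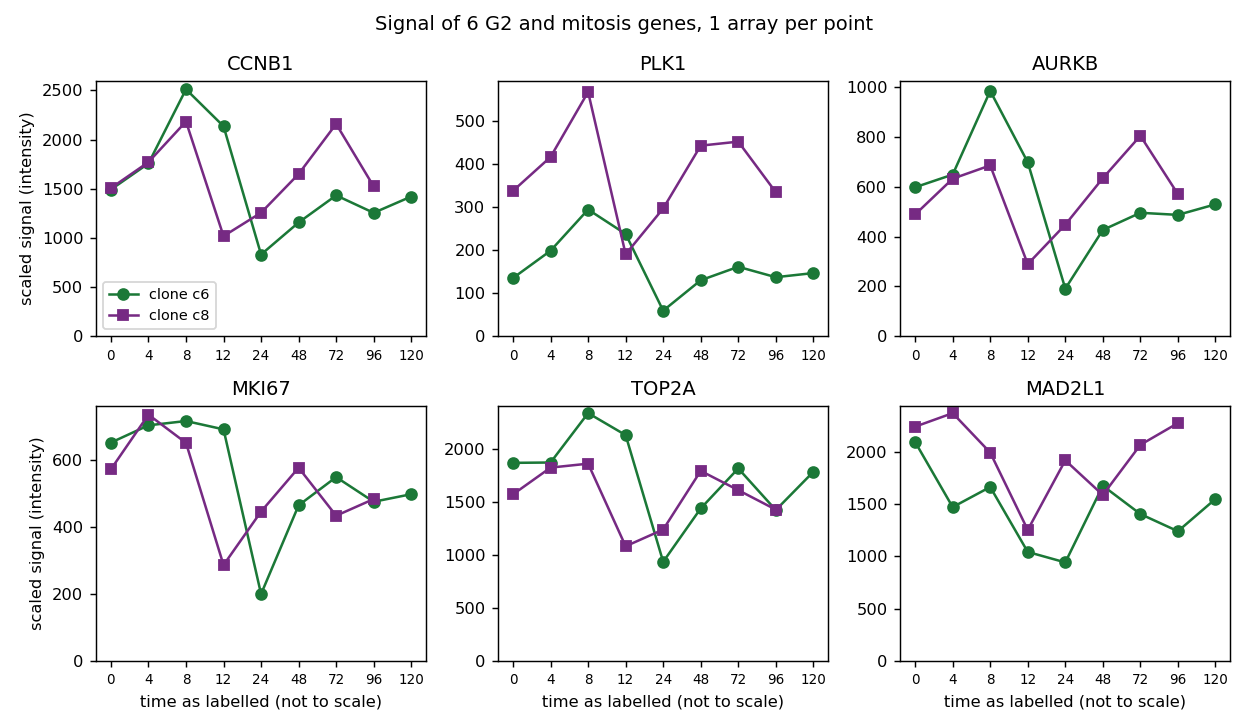
Scaled signal (intensity, linear axis from 0) of CCNB1, PLK1, AURKB, MKI67, TOP2A and MAD2L1 against time as labelled, clone c6 in green circles and clone c8 in purple squares, with 1 array per point. The lowest point is time 24 in clone c6 and time 12 in clone c8 for each of the 6 genes, and PLK1 sits higher in clone c8 (337 against 135 at time 0).

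The spindle checkpoint keeps the APC/C off until chromosomes are attached. MAD2L1, its diffusible inhibitor of CDC20, read 2098, 1474, 1667, 1044, 943, 1679, 1407, 1242 and 1552 in clone c6, so all 8 later arrays were below time 0. In clone c8 MAD2L1 read 2246, 2375, 1997, 1255, 1922, 1590, 2071 and 2280, lowest at times 12 and 48. MAD2L1 was below time 0 at time 8 in both clones (−0.33 and −0.17), where 33 of the 40 genes were above it in both. BUB3, which carries BUB1 and BUB1B to kinetochores and is made throughout the cycle, was among the genes closest to time 0 on the low arrays, from 2969 to 2090 at time 24 of clone c6 and from 3129 to 2548 at time 12 of clone c8. BUB1 and TTK, which encode kinases, and BUB1B, which encodes BUBR1, had signals 1.95-fold, 2.13-fold and 2.24-fold below time 0 at time 24 of clone c6.

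The kinetochore genes had the lowest median of the roles with more than 2 genes at time 24 of clone c6 (−1.25) and a median near 0 at time 8 (0.06 in each clone). NUF2, which with NDC80 forms the arm that grips microtubules, read 1962, 1709, 1880, 1815, 816, 1325, 1557, 1345 and 1599 in clone c6. In clone c8 NUF2 read 1776, 2051, 1799, 882, 1232, 1417, 1220 and 1459, so that all arrays from time 12 on were below time 0 in both clones. CENPE, the kinetochore motor that brings chromosomes to the equator, read 331, 354, 306, 650, 121, 274, 419, 322 and 368 in clone c6, highest at time 12 and lowest at the next time. In clone c8 CENPE read 228, 309, 204, 104, 143, 230, 120 and 188, low at both times 12 and 72. CENPA, the histone H3 variant that marks centromeres, was 0.95 above time 0 at time 8 in clone c6 and 0.09 above it in clone c8.

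Among spindle motors and assembly factors, KIF11 (the motor that pushes the spindle poles apart) read 864, 852, 807, 872, 328, 694, 723, 662 and 744 in clone c6, against 706, 870, 689, 367, 563, 802, 610 and 651 for clone c8. It was flat up to time 12 in clone c6 and had no peak at time 8 in either clone. ASPM, a spindle pole protein, was 1365 at time 0, 2284 at time 12 and 537 at time 24 in clone c6. TPX2, the activator of AURKA on the spindle, stayed closest to time 0 of the 8 genes on the low array of each clone, at 1259 against 736 and 1164 against 880. In the midzone and cytokinesis role, KIF23, part of centralspindlin, was at −1.18 and −1.17 on the low arrays of clones c6 and c8, and the latter was the lowest of the 40. KIF20A, a midzone kinesin, was at −0.74 and −0.24, and ECT2, the exchange factor that activates RHOA for the contractile ring, −0.53 and −0.70.

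CDC20, the APC/C activator that starts anaphase, read 1035, 1357, 2098, 1548, 541, 842, 1051, 906 and 861 in clone c6, against 1005, 1059, 1319, 633, 696, 969, 1260 and 804 for clone c8. Its highest array was time 8 in each clone. UBE2C, the ubiquitin-conjugating enzyme of the APC/C, had the same order, at 1558, 2663 and 877 for times 0, 8 and 24 of clone c6. PTTG1 (securin), which restrains the protease that cuts cohesin, was closest to time 0 on the low arrays, at −0.50 (equal to BUB3) and −0.18. The 3 genes of this role had the highest median of any role at time 8 of clone c6 (0.77).

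The chromosome proteins are the best-known proliferation markers. MKI67, the coat protein of mitotic chromosomes, read 653, 705, 718, 693, 200, 465, 550, 476 and 499 in clone c6, against 573, 737, 652, 287, 447, 578, 434 and 484 for clone c8. Its time 24 signal in clone c6 was 3.10-fold below time 0, the deepest of the 40, and all 4 later arrays of that clone were also below time 0. TOP2A, the topoisomerase that untangles sister chromatids, read 1870, 1874, 2341, 2133, 935, 1440, 1818, 1424 and 1785 in clone c6. In clone c8 TOP2A read 1573, 1825, 1863, 1082, 1240, 1795, 1612 and 1428.

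The order of depth on the low arrays was similar in both clones. Across the 40 genes, the changes at time 24 of clone c6 and time 12 of clone c8 correlated with r = 0.75, and those at time 8 of the clones with r = 0.67, whereas time 24 of the clones gave r = 0.06. These are correlations across genes that share arrays and each clone's time 0, given as descriptions. On the low arrays 38 of 40 genes were lower in clone c6 and 2 (CDC25B and ECT2) lower in clone c8. After each gene was centred within its clone, pairs of the 40 genes correlated over the 17 arrays with a median r of 0.85 (780 pairs, from 0.18 for MAD2L1 with PTTG1 to 0.99 for CDC25C with UBE2C). Of these pairs 96.7% were above 0.5, against 6.75% of all gene pairs, and MAD2L1 was the gene least like the mean of the others (r = 0.52).

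**Figure D4:**
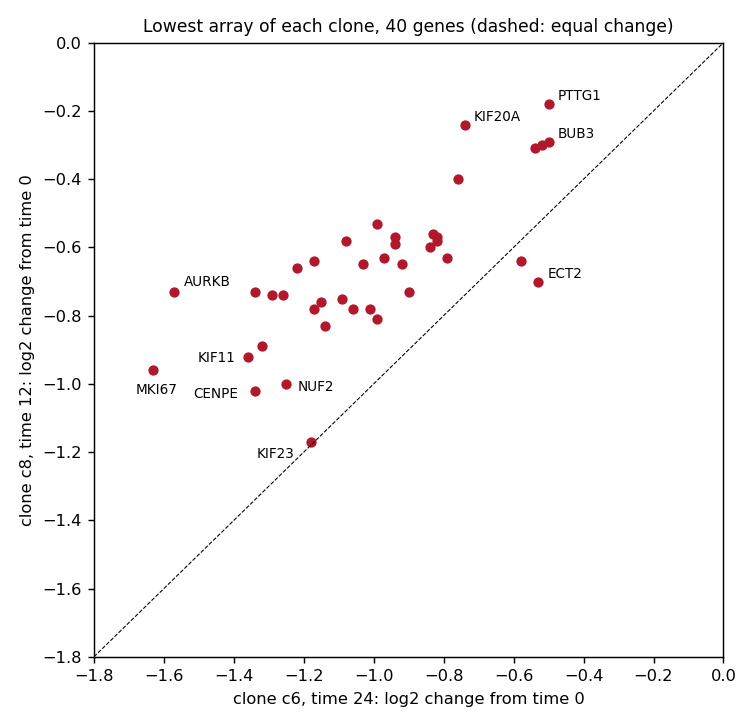
Log2 change from time 0 on the lowest array of each clone, clone c6 at time 24 on the x axis and clone c8 at time 12 on the y axis, 1 point per gene (40 genes, r = 0.75); the dashed line marks equal change. All but 2 points lie above the line, with MKI67 and AURKB farthest to the left and KIF23 lowest.

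The test over both clones set equal times side by side, so that the low array of clone c6 stood beside time 24 of clone c8. At time 24 against time 0, the fitted log2 change was below 0 for 40 of 40 genes, with a median of −0.65 (all genes 0.04). NUF2 fell, by 0.89 ± 0.25 on the log2 scale (SE, limma adjusted p = 0.0400), and no other gene of the 40 passed, against 8.18% of all genes. The fall of NUF2 was seen in both clones, from 1962 to 816 and from 1776 to 1232. MKI67 had −0.99 ± 0.33 (limma adjusted p = 0.0828), CENPE −0.98 ± 0.44 (adjusted p = 0.200) and ASPM −0.90 ± 0.36 (adjusted p = 0.147), and the smallest changes were those of CKS2 (−0.34), BUB3 (−0.35) and TPX2 (−0.36). At an unadjusted p under 0.05 in the same limma fit there were 25 of 40, and 3078 of all 13675 genes.

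That count depended on which arrays were used. Without time 12 of clone c6, or without time 12 of clone c8, 19 genes passed at time 24. Both fits give the same result by construction, since the array left at time 12 is then taken up by its own term. When time 48 of either clone was left out 2 passed, and 0 passed without time 8 or 96 of either clone. Without a time 0 or time 24 array the comparison rests on a lone array, so those counts are not given. Counts over all genes in these fits are not given here, so these changes are not read as particular to the 40 genes. In clone c6 alone 18 of 40 passed (403 of all genes), and in clone c8 alone 0 (7 of all genes). In a fit without the clone as a block, 0 passed, and NUF2 had an adjusted p of 0.0986.

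**Figure D5:**
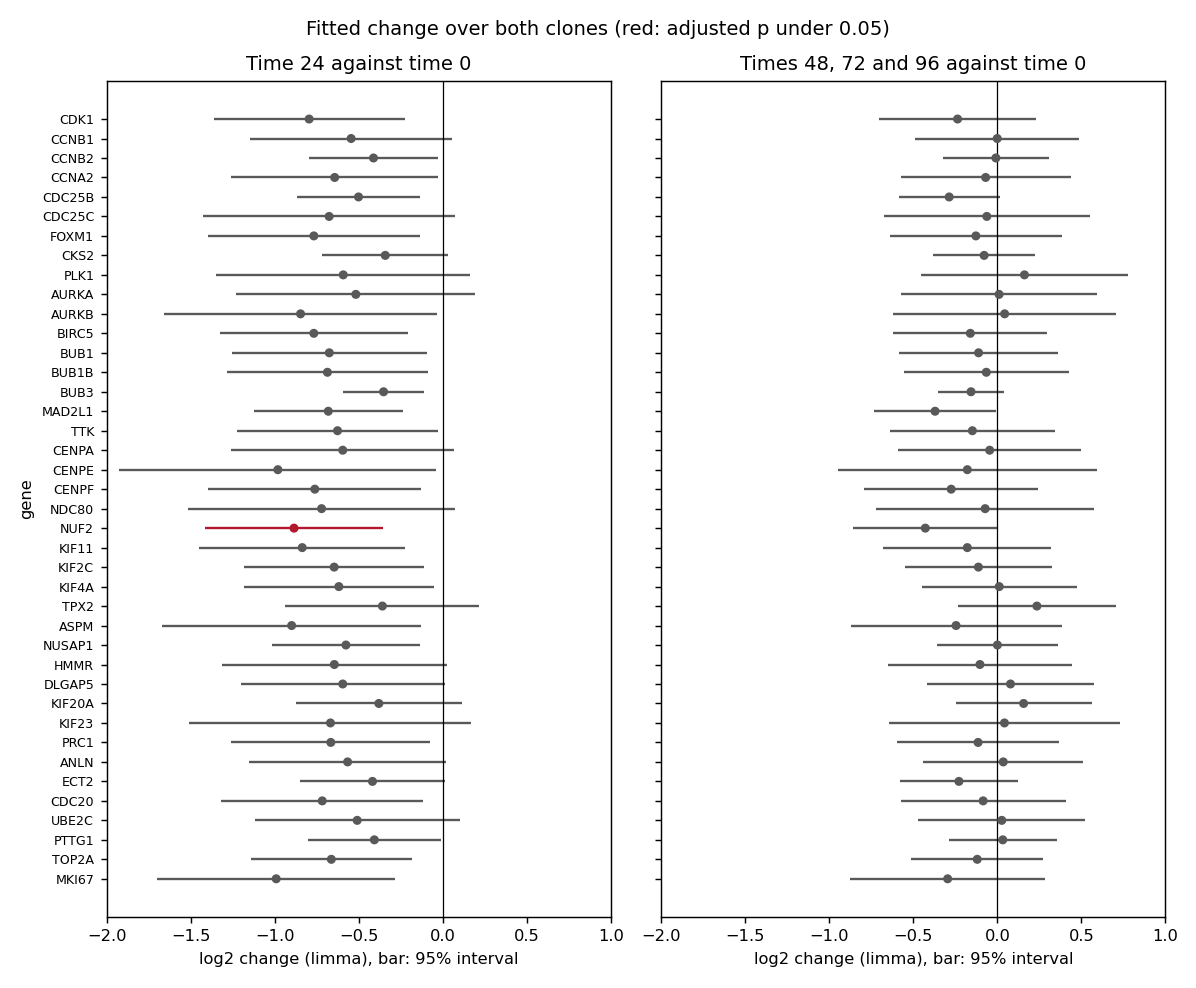
Fitted log2 change over both clones (points) with its 95% interval (bars) from limma for the 40 genes, at time 24 against time 0 (left) and for times 48, 72 and 96 together against time 0 (right). On the left all 40 points are below 0 and NUF2, in red, has an adjusted p of 0.0400; on the right the points run from −0.43 to 0.24.

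Late against start, times 48, 72 and 96 of both clones against time 0, asks whether the division genes settled at a lower level once NOTCH3IC had been on for long. No member passed (0 of 40, against 6.94% of all genes), and the median of the 40 was −0.08 (all genes 0.02). The same limma fit gave an unadjusted p under 0.05 for 1 of 40, and for 2509 of all 13675 genes. The intervals were wide enough to leave moderate changes undetected: the 40 intervals of 95% together spanned −0.95 to 0.78, and all 40 left out a 2-fold change in either direction. NUF2 had the lowest value, −0.43 ± 0.20 (limma adjusted p = 0.279), followed by MAD2L1 at −0.37 ± 0.17 (adjusted p = 0.255; −0.58 to −0.17 when single arrays were left out, the latter without time 0 of clone c6) and MKI67 at −0.30 ± 0.27 (adjusted p = 0.636). TPX2 had the highest, 0.24 ± 0.22 (adjusted p = 0.647), then PLK1 at 0.16 ± 0.29 and KIF20A at 0.16 ± 0.19.

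Within roles the late values ran from CDC25B (−0.29) to CCNB1 (−0.00) in the CDK engine and from BIRC5 (−0.16) to PLK1 (0.16) among the kinases. They ran from MAD2L1 to BUB1B (−0.07) in the checkpoint, from NUF2 to CENPA (−0.05) at the kinetochore and from ASPM (−0.25) to TPX2 on the spindle. At the midzone they ran from ECT2 (−0.23) to KIF20A, and in the anaphase role from CDC20 (−0.08) to PTTG1 (0.03). TOP2A was at −0.12.

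By value, most genes lay below time 0 on the late arrays of clone c6, and on both sides of it on those of clone c8. For clone c6 the mean late change was below 0 for 34 of 40 genes (median −0.20), and in 23 all 3 late arrays were below time 0 (29.9% of all genes). For clone c8 it was below 0 for 17 of 40 (median 0.06), and in 6 all 3 late arrays were below (25.6% of all genes). At time 72 of clone c8 the genes split, with CENPE at −0.85, CENPF at −0.78 and CDK1 at −0.61, and AURKB at 0.70, KIF20A at 0.68 and CCNB1 at 0.51.

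Early against start, times 4, 8 and 12 against time 0, called 0 of 40 genes (2.01% of all genes). An unadjusted limma p under 0.05 was found for 1 of 40 (MAD2L1), and for 1951 of all 13675 genes. The median was 0.12 (all genes 0.03). PLK1 had the highest value, 0.42 ± 0.29 (limma adjusted p = 0.571), then AURKA at 0.39 and CDC25C at 0.34. MAD2L1 had the lowest, −0.46 ± 0.17 (adjusted p = 0.222), then NUF2 and ECT2 at −0.19. The low array of clone c8 is among the early ones, so the clones enter this mean with opposite signs at time 12 (0.25 and −0.66 as medians).

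Late against early, which does not use time 0, called 0 of 40 (5.18% of all genes), with a median of −0.20 (all genes −0.01). Unadjusted limma p was under 0.05 for 3 of 40, and for 2184 of all 13675 genes. CDC25C had −0.40 ± 0.20 (limma adjusted p = 0.346), CENPF −0.38 ± 0.16 (adjusted p = 0.224) and AURKA −0.38 ± 0.20 (adjusted p = 0.375), and the highest were ANLN (0.10), MAD2L1 (0.09) and ECT2 (−0.04). In clone c6 alone 16 of 40 passed (662 of all genes), and without time 12 of clone c8 21 passed (1244 of all genes). The F test for a change at any time called 0 of 40 (6.61% of all genes), the smallest adjusted p being 0.116 for CDC20. Its unadjusted p was under 0.05 for 12 of 40, and for 2588 of all 13675 genes. The number of calls by the F test moved when time 12 of either clone, or time 24 of clone c8, was left out. That time then held a lone array, so those counts are not read as results. For clone c6 alone the F test compared groups of neighbouring times, not single times. Some of those groups held a lone array, so its count is not read as a result either.

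The clone difference in response, late minus early in clone c8 less the same in clone c6, was above 0 for 39 of 40 genes, with a median of 0.58 (all genes 0.02) and the highest value in AURKB (1.08). Without time 12 of clone c8, the low array of that clone, the median was 0.26. No member passed, and no gene of the 13675 did (0.00% of all genes). At an unadjusted p under 0.05 there were 17 of 40 and 1193 of all genes by the same limma fit, and the smallest adjusted p among the 40 was 0.528, for CCNB1.

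The clone difference in level was called in 6 of 40 genes, against 21.7% of all genes. PLK1 was higher in clone c8 by 1.15 ± 0.18 on the log2 scale (limma adjusted p = 4.07e-04, higher in clone c8 at 7 of the 8 shared times). MAD2L1 (0.46, adjusted p = 0.00587) and BUB3 (0.22, adjusted p = 0.0114) were also higher there. CENPE (−0.77, adjusted p = 0.0224), FOXM1 (−0.45, adjusted p = 0.0398) and BUB1 (−0.41, adjusted p = 0.0417) were lower. The count was 11 without time 12 of either clone and 3 without time 72 of either clone. Counts over all genes under these settings are not given here, so these changes are not read as particular to the 40 genes. BUB1 and FOXM1 lost the call under 17 and 16 of 26 other settings, and PLK1 under none of them.

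Other genes of division were low on the same arrays. Of 55 further mitotic genes measured (59 named), 51 were lowest at time 24 of clone c6 (12.9% of all genes). At time 12 of clone c8, 48 were lowest (14.9% of all genes). At time 24 against start 9 fell and none rose (8.18% of all genes called), with a median of −0.65, the same as for the 40. They were UBE2S (−1.10 ± 0.16, limma adjusted p = 7.08e-04), the ubiquitin-conjugating enzyme that extends APC/C chains, CKAP2L, CENPN, SMC4, NCAPH, LMNB1, ZWINT, OIP5 and MELK. Late against start none of the 55 passed, with the smallest p in LMNB1 (−0.69 ± 0.22, adjusted p = 0.0763). The 16 APC/C subunits and mitotic exit genes measured, most of which are made throughout the cycle, had no call late, early or at time 24, and a median of −0.08 at time 24.

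S phase genes were lower earlier. Of 38 measured, 5 fell early (2.01% of all genes called) and 31 fell at time 24 (8.18%). Late, 1 fell (CCNE2, −0.59 ± 0.17, limma adjusted p = 0.0463), a share not above the 6.94% of all genes called, and none rose in these comparisons. Their median was −0.22 and −0.30 at time 8 in clones c6 and c8, where that of the G2 and mitosis genes was 0.39 and 0.27, and −0.72 at time 12 of clone c6, where the 40 stood at 0.25. In clone c6, 30 of 38 were lowest at time 24 (12.9% of all genes) and 7 at time 12 (10.8%). In clone c8, 34 of 38 were lowest at time 12 (14.9%). The difference between the lists was not tested.

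Among 20 DREAM and FOXM1-MYBL2 regulators, 4 fell late against start (6.94% of all genes called): E2F1 (−0.67 ± 0.14, limma adjusted p = 0.00609), an activator of S phase genes, MYBL1 (−0.70), and the repressors E2F8 (−0.66) and E2F7 (−0.64). MYBL2, which replaces the repressor subunits of DREAM in G2, was 1.71 below time 0 on the log2 scale at time 24 of clone c6 by value, and its change at time 12 of clone c8 was −0.76. Of 6 CDK inhibitors measured, CDKN1C (p57) rose and CDKN1A (p21) fell late, by 1.77 ± 0.19 (adjusted p = 2.06e-05) and −0.55 ± 0.15 (adjusted p = 0.0390). CDKN1C read 176, 637, 1535, 1967, 1683, 628, 553, 695 and 679 over the 9 times of clone c6. In clone c8 it read 197, 1155, 1810, 2240, 1106, 589, 854 and 756, highest on the low array of the 40 genes in clone c8 and on the array before the low array in clone c6. Whether these changes are tied to those of the 40 genes was not tested.

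Other measures on the low arrays were as follows. NOTCH3 went from 94.6 at time 0 to 446 at time 24 in clone c6 and from 218 to 780 at time 12 in clone c8, and HEY1, a direct NOTCH target, from 30.0 to 4024 and from 71.4 to 5491. The 3′ to 5′ ratio of GAPDH control probes was 0.930 to 1.12 on all arrays, and that of ACTB was 1.22 to 1.49 in clone c6, highest at time 24, and at least 1.56 in clone c8. The part of RNA quality in the low array of clone c6 was not tested. Array medians ran from 14.6 to 19.3, and the number of arrays limits the precision. Of 10 adrenergic neuroblastoma markers measured, 3 fell and 1 rose late against start (6.94% of all genes called). Among them GATA3 stayed between 3045 and 4290 on all arrays, while DBH ran from 3.9 to 245 and HAND1 from 450 to 1635. TH was below the filter, and all 3 leukocyte markers on the array (PTPRC, CD3D and CD14) were below it, at 12.7 or less. Of 6 smooth muscle and pericyte markers 5 rose late, and of 6 mesenchymal markers measured 3 rose late (6.94% of all genes called). The part of these markers in the values of the 40 genes was not tested.

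The probe set chosen per gene had little bearing on the low arrays. The 40 genes have 82 probe sets, and 19 genes have a single one. Of 38 further probe sets above the filter, from 21 genes, 31 were lowest at time 24 of clone c6 and 32 at time 12 of clone c8, and 35 were below time 0 on each of these arrays. None of the 38 passed late against start.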

How the data were processed

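RNA of IMR32 clones was measured on 17 arrays of 54675 probe sets. The authors deposited an intensity per probe set, on a linear scale. Per the submitters' processing notes, MAS5 and GCOS were used (no versions given), and the values show that all arrays were set to a 2% trimmed mean of 100.01. Of the probe sets, 41097 had 1 symbol in the platform annotation, 1801 several and 11777 none, and a RefSeq table (GRCh38.p14) held 41043 of the 41097 and changed 0 symbols. Intensities were taken as log2(value + 16), which understates changes of dim genes. Genes were kept where their brightest probe set reached the 40th percentile (4.68).

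Tests used limma 3.58.1 in R 4.3.3 (lmFit, eBayes with an intensity trend) and Benjamini-Hochberg adjustment over all 13675 genes, with a threshold of 0.05. Time contrasts came from 1 fit with a term per time and a clone term (17 arrays, 7 residual degrees of freedom). Late against early used 12 arrays (9), its clone interaction the same arrays (8) and clone level the 16 arrays of shared times (7). Neighbouring times stand in as replicates within a phase. The clone named in the labels pairs the arrays, and across genes the differences between the clones at the 8 shared times had pairwise r from 0.13 to 0.49. No 2 arrays had more than 1.42% of values equal. The code was tested on simulated data.

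The members, gene lists and tests were chosen with earlier results of these data known. Genes printed singly were 13 fixed by name, the 3 largest values each way in each phase comparison, members past the threshold, the highest and lowest late value per role, and up to 4 genes of smallest late p per other list; NUF2, KIF11, CENPE, KIF23 and others with extreme values on the low arrays, the genes of largest value at time 8, those first listed by role, and all called genes of the other mitotic list were added after their values were seen. Alternatives were other pseudocounts, normalizations, filters, probe set rules and models, single clones, and leaving out arrays in turn.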

Additional observations from a re-analysis of the deposited data

Results flagged for a closer look

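On the early arrays (times 4, 8 and 12 of both clones, 6 values per gene), time 12 of clone c8 stood far below the others for 13 of the 40 genes. The log2 change from time 0 was −1.17 for KIF23 (next lowest 0.19), −1.0 for NUF2 (next −0.20), −0.96 for MKI67 (next 0.08), −0.92 for KIF11 (next −0.10) and −0.89 for ASPM (next 0.14). It was −0.78 for BUB1B (next 0.21), −0.76 for CCNA2 (next −0.03), −0.66 for PRC1 (next 0.09) and −0.64 for BIRC5 (next 0.03). It was −0.58 for UBE2C (next 0.28), −0.57 for AURKA (next 0.35), −0.57 for DLGAP5 (next 0.32) and −0.31 for CKS2 (next 0.11). In each case the gap exceeded 0.625 of the whole range, Dixon's critical value for 6 values. There were 80 such groups of values examined, early and late for each gene. Chance marks about 1 in 20 where all values are of 1 kind, which does not hold here. The share of all genes marked was not computed. The genes share these arrays, so the 13 are not independent.

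The late change had opposite signs in the clones on every late array for 5 of the 40 genes. The share of all genes that meet this rule was not computed, so the count is not read as particular to the 40. The mean in clone c8 less that in clone c6 was 0.44 for CCNB1 (0.22 and −0.22), 0.64 for CCNA2 (0.25 and −0.39), 0.48 for AURKA (0.25 and −0.23), 0.77 for AURKB (0.43 and −0.34) and 0.46 for NDC80 (0.16 and −0.30). This difference from time 0 was not tested. The clone difference in late minus early, which was tested, called none of the 40 genes.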

How the results depend on the processing

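Early against start, late against start and the clone difference in response called 0 of the 40 genes under every alternative run. At time 24 against start the 1 call (NUF2) became 0 with quantile normalization, with no filter, without the intensity trend, without the clone term (no replicate block), with phase means and in clone c8 alone, and the count was 18 in clone c6 alone and 0 to 19 when single arrays were left out. The count changed over time was 32 in clone c6 alone and 0 to 31 without single arrays. For either clone alone, the test at time 24 set 1 array against 1 array. The test of change over time in clone c6 alone compared groups of neighbouring times, some with a lone array. Its highest count without single arrays came without time 12 of clone c6, which left a lone array at that time. These counts come from different tests, so they are not compared or read as results. Late against early gave 16 in clone c6 alone and 0 to 21 without single arrays. The 6 calls of clone level became 3 with no filter, 2 with the mean of probe sets and 3 to 11 without single arrays. The late value of KIF20A reversed to −0.16 in clone c6 alone and −0.03 without time 0 of clone c8, and ranged from −0.03 to 0.34 over the fits without single arrays. The fit without the clone term changed no other count. For these changes the cause was not tested. Under alternatives chosen after seeing the data (pseudocounts, scalings, probe sets, other reference), 39 to 40 genes were lowest at time 24 of clone c6 and 37 to 39 at time 12 of clone c8. The medians there were −1.15 to −0.88 and −0.70 to −0.62. With 1 array per clone and time, precision is limited by the number of arrays, and array signal carries no counting depth.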
